A study of Mus musculus with 3 samples.

Results

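Immunoglobulin heavy chain variable (Ighv) segments were followed in spleen cells of mice from 3 single-cell RNA libraries, labelled Chow, MASH and MASH-Phe-free (called Phe-free below). The members were all genes whose symbol begins with Ighv, 183 of the 33696 genes in the tables, in 16 families named by the number that follows Ighv. A cell was assigned a segment when it held at least 3 Ighv UMIs (unique molecular identifiers, each standing for 1 captured RNA molecule) and 80% or more of them came from that segment. Plasma cells were cells with at least 10 Jchain UMIs, and B cells were cells with at least 1 Cd79a and 1 Ms4a1 UMI and fewer than 10 Jchain UMIs. Of the 183 genes, 150 had a UMI in any library, 33 were listed at 0 in all 3, 50 were under 20 UMIs in total, and 82 were assigned to at least 1 plasma or B cell. Of these 82 segments, 67 were assigned in every library.

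The series' design text describes C3H mice given a high-fat diet and then a modified methionine- and choline-deficient, high-fat diet to produce NASH (MASH in the sample labels, steatohepatitis, a fatty and inflamed liver), beside mice on a diet that does not. Both kinds of mice in that text carried a subcutaneous tumour of HCA-1, a mouse hepatocellular carcinoma line, and the text concerns RNA of the tumours. The labels of the spleen samples give the tissue and the group in the title, and Phe-free is read here as no more than that title states. For the spleen samples the strain, genotype, diet times, age, number of animals and tumour status are not given in the sources used here, so what the 3 groups share or differ in beyond the titles is not known.

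Each group was 1 library, so no difference had a replicate check and no test was run. Intervals below are exact Clopper-Pearson 95% intervals for shares, and 95% intervals on the log scale for ratios of shares. All of them cover counting error only, and cells of 1 library are not replicates. The libraries held 138787602 to 160115282 UMIs, and 15560 to 17333 cells remained after filtering, with a median of 6334 to 7304 UMIs per cell. The Chow, MASH and Phe-free libraries gave 339, 288 and 433 plasma cells and 5674, 5449 and 4277 B cells. The plasma list (Jchain, Sdc1, Xbp1, Prdm1, Mzb1, Irf4, Tnfrsf17, Derl3) summed to between 35352 and 39275 CPM (a gene's UMIs scaled to the same fixed total in every class) in plasma cells and to between 623 and 673 CPM in B cells. The list of B cell genes summed to between 10846 and 11376 CPM in B cells and to between 1612 and 1883 CPM in plasma cells. Jchain led the plasma sum in plasma cells and Cd79a the B cell sum in B cells. Both genes, and Ms4a1 of the B cell list, also define the classes. These sums are thus partly fixed by the gates and are no independent check of the names. Markers of other cells differed between libraries: the erythroid list summed to 83.3, 2599 and 487 CPM in the Chow, MASH and Phe-free B cells, and the myeloid list to 955, 470 and 1918 CPM. The same lists in plasma cells ran from 504 to 1389 CPM (erythroid) and from 24.8 to 609 CPM (myeloid), and their part in the results below was not tested. Pairs of libraries shared 72 to 102 barcodes, and no cell of a shared barcode was assigned the same segment in both libraries.

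A developing B cell joins 1 heavy chain variable segment to a diversity and a joining segment, and the joined exon is transcribed from the promoter of that variable segment. Because the other allele is normally kept from producing a heavy chain, a B cell and the plasma cells that descend from it carry 1 segment, which marks the clone and forms much of the antigen-binding surface. In the mouse spleen most B cells are follicular, while marginal zone and B1 cells, which make much of the natural IgM, are known to use particular segments more often. Plasma cells transcribe the joined gene at very high level and secrete the antibody.

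Many segments are near copies of each other, which bears on whether reads can be told apart, so 4 pairs are shown first. They are germline sequence of the variable exon, read from the GENCODE M21 transcripts of GRCm38 (C57BL/6J) on the strand of the gene, each the last 240 bases that align within the pair, and capitals mark the bases that differ within the pair. The files use GRCm39, so no coordinates are given. Ighv11-1 and Ighv11-2 were chosen because Ighv11-2, long known from B1 antibodies, was assigned to no cell here; they differed at 2 bases.
Ighv11-1: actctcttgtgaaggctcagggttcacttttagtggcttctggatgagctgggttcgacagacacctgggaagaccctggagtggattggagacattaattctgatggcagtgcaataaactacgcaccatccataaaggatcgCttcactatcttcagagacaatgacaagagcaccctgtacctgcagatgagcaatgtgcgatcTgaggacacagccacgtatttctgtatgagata
Ighv11-2: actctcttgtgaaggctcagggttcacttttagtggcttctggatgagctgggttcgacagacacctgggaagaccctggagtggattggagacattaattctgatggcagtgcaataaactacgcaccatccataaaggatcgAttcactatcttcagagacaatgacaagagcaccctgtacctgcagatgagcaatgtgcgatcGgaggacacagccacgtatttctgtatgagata
Ighv1-80 and Ighv1-82 were the pair that most often split a cell, and differed at 9 bases.
Ighv1-80: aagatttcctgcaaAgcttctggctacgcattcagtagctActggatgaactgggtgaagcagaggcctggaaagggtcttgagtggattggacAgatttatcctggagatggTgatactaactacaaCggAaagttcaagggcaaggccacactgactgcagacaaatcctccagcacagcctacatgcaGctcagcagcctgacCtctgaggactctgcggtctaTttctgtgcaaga
Ighv1-82: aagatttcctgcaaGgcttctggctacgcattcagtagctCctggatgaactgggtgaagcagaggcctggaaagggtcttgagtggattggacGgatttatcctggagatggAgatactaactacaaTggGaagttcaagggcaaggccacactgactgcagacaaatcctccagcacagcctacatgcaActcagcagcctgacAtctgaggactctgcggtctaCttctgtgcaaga
Ighv5-4 and Ighv5-9 split cells often with a lower identity, differing at 14 bases.
Ighv5-4: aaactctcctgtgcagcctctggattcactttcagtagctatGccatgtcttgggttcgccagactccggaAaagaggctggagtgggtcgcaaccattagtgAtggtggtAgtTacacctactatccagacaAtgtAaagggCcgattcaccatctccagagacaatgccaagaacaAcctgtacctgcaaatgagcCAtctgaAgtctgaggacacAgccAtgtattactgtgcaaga
Ighv5-9: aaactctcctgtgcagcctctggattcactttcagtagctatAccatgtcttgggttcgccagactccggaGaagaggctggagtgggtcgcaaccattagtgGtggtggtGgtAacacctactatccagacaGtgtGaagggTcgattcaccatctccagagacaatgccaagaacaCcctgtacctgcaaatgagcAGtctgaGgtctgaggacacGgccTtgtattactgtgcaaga
Ighv1-14, the segment assigned to most B cells, differed from its nearest segment, Ighv1-83, at 25 bases.
Ighv1-14: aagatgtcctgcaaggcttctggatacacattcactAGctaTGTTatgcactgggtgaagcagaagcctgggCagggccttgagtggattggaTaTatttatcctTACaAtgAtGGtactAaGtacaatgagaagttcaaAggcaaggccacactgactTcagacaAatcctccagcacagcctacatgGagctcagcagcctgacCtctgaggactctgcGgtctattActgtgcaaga
Ighv1-83: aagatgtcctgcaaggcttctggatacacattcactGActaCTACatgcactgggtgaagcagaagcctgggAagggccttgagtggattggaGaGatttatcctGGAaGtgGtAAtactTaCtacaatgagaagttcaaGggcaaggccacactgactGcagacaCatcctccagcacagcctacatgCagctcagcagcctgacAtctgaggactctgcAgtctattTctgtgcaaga

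Ighv transcripts made up a large part of the plasma cell RNA and a small part of the B cell RNA. Ighv genes together summed to 114578, 115341 and 112585 CPM in the Chow, MASH and Phe-free plasma cells, against 2034, 2223 and 2207 CPM in B cells. T cells (cells with Cd3e and Trac UMIs, and Cd79a and Jchain at 0), which do not express a joined heavy chain gene, gave a background of free RNA at 35.3, 28.9 and 31.2 CPM. Their gate leaves out T cells that hold free Jchain or Cd79a RNA, so this background may be set too low. The median plasma cell held 1274, 1301 and 1309 Ighv UMIs, the median B cell 16, 18 and 17, and the median T cell 0. The 3 libraries lay close together within each cell class, and the classes did not overlap in these medians. No single plasma cell dominated the sum: the highest cell held 1.89, 1.84 and 1.60% of its library's plasma cell Ighv UMIs.

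Gene by gene, most Ighv genes measured were higher in plasma cells. With UMIs summed over each class and a 2-fold limit on CPM with an offset of 1 CPM, 82 of 101 Ighv genes with at least 50 UMIs were higher in plasma cells in Chow and 9 were lower. Over all genes tested in Chow, 5.07% were higher and 55.7% lower. In MASH the counts were 78 higher and 16 lower of 100, against 4.48% and 54.5% of all genes. In Phe-free they were 93 higher and 7 lower of 104, against 4.65% and 55.3%. The median log2 ratio of plasma cells over B cells was 4.89, 4.20 and 4.40 for Ighv genes in the 3 libraries, against -1.12, -1.08 and -1.10 for all genes. These ratios are shares of each class's RNA, in which a few very abundant transcripts take up much of the plasma cell total.

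Most plasma cells, and 53.0 to 55.5% of the B cells, could be given 1 segment. In Chow, MASH and Phe-free, 244 of 339 (72.0%, interval 66.9 to 76.7), 201 of 288 (69.8%, 64.1 to 75) and 318 of 433 (73.4%, 69.0 to 77.5) plasma cells were assigned. The same counts for B cells were 3009 of 5674 (53.0%, 51.7 to 54.3), 3024 of 5449 (55.5%, 54.2 to 56.8) and 2366 of 4277 (55.3%, 53.8 to 56.8). The intervals of the 2 classes did not overlap in any library, and those of the 3 plasma cell shares overlapped each other. Of the T cells, 6 of 2207 (0.272%), 2 of 2157 (0.0927%) and 4 of 1557 (0.257%) were assigned by the same rule. Having 3 Ighv UMIs was not the limit: 98.5, 99.3 and 99.5% of plasma cells, 92.3, 91.0 and 91.2% of B cells, and 1.54, 0.695 and 0.963% of T cells reached it.

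Where a segment led, it usually took nearly all Ighv UMIs of a plasma cell. The median share of the leading segment was 98.6, 96.8 and 98.3% in plasma cells and 85.0, 87.0 and 87.5% in B cells. The classes were also compared at equal Ighv depth. After thinning each cell to 10 Ighv UMIs, which left out 10, 8 and 13 plasma cells and 1646, 1511 and 1170 B cells, 74.5, 76.1 and 77.6% of plasma cells and 68.2, 70.2 and 70.4% of B cells reached 80%. Without thinning, the same cells gave 72.9, 70.7 and 74.3% for plasma cells and 64.1, 66.2 and 65.9% for B cells. The difference between the classes in those same cells was wider after thinning than before in MASH and narrower in Chow and Phe-free. Thinning each cell to 2000 UMIs, which left out 33, 17 and 17 plasma cells and 113, 162 and 95 B cells with fewer, gave 72.9, 67.2 and 72.4% of plasma cells and 42.0, 45.6 and 45.6% of B cells assigned. Near the limit, 9, 8 and 17 plasma cells had a leading share from 75 to 80% and 8, 8 and 13 from 80 to 85%, while B cells numbered 299, 298 and 204 just below and 382, 401 and 285 just above. At the limit on Jchain, 30, 28 and 32 cells held 5 to 9 UMIs and 23, 22 and 35 plasma cells held 10 to 19.

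Cells without an assigned segment were mostly split between segments of 1 family. Among cells with at least 3 Ighv UMIs and no segment at 80%, the 2 leading segments belonged to the same family in most plasma cells, 95.6% of 90 in the Chow library, 85.9% of 85 in the MASH library and 92.0% of 113 in the Phe-free library. For B cells the shares were 67.7% of 2226, 70.6% of 1936 and 72.0% of 1536. At the level of families, 97.3, 95.1 and 97.2% of plasma cells and 81.0, 81.9 and 82.2% of B cells were assigned. In plasma cells the 4, 12 and 9 cells split across families had a median of 25250, 26745 and 21288 UMIs, against 17652, 21348 and 17443 in assigned plasma cells. For B cells these medians were 8492, 8453 and 8152 beside 8490, 8527 and 7954. Ighv UMIs were fewer in cells split across families. In plasma cells their median was 90.5, 130.5 and 22, against 1850, 1859 and 1806 in assigned cells. In B cells it was 14, 15 and 16, against 21, 23 and 22. Doublets, which would carry a pair of segments and more UMIs, were removed with Scrublet, which marked 1.80 to 1.97% of cells, and the part of any that remained was not tested.

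The splits were concentrated in a few pairs. Over the 3 libraries, 5986 split cells fell on 1369 distinct pairs of segments, of which the 5 most frequent held 1733 cells (29.0%) and the 20 most frequent 3078 (51.4%). All 20 were pairs within a family, with a transcript identity of 85.8 to 98.6% and a median of 95.6%, against a median of 81.8% for all pairs within a family and 70.4% for all pairs of segments. Ighv1-80 and Ighv1-82 split 438 cells (95.4% identity), Ighv1-55 and Ighv1-62 split 351 (96.9%), and Ighv14-1 and Ighv14-2 split 322 (97.4%). Ighv1-52 and Ighv1-53 followed with 315 cells (92.0%), and Ighv5-4 and Ighv5-9 with 307 (94.0%). In the order of segments along the locus these pairs were 2, 9, 4, 1 and 8 steps apart, so near copies that split cells were not always neighbours.

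**Figure D1:**
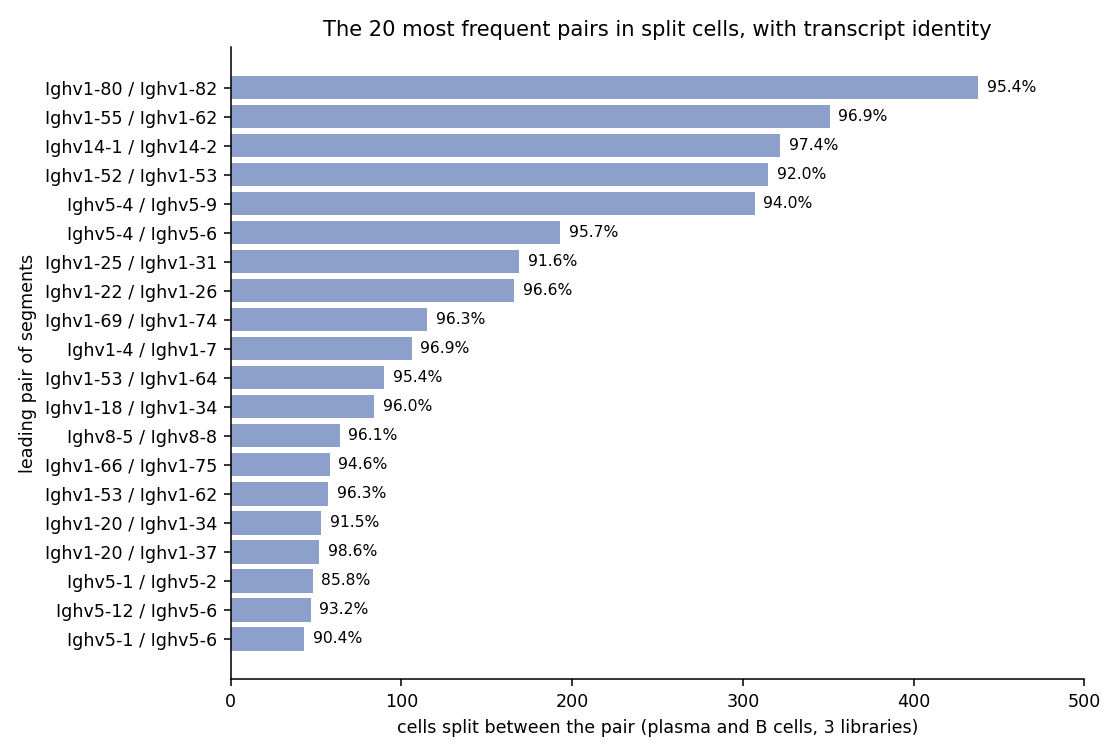
Split cells over the 3 libraries for the pairs of Ighv segments that most often led a cell together, with the cells on the horizontal axis, the pairs on the vertical axis and their transcript identity beside each bar. Ighv1-80 and Ighv1-82 stand first with 438 cells, and all pairs shown are within 1 family.

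In some split pairs the 2 segments shared a cell's UMIs in a similar ratio from cell to cell. Among split cells with at least 10 UMIs on both together, Ighv14-1 took a median of 50% of the UMIs of Ighv14-1 and Ighv14-2 in each library. Plasma cells, which hold far more Ighv UMIs, gave the ratio with less counting error: 46.2 to 54.1% in 5 Chow cells, 50.8 to 52.3% in 4 MASH cells and 49.3 to 50.8% in 5 Phe-free cells. These 14 cells all lay near an even split. Ighv1-55 took a median of 30, 29.9 and 32.1% beside Ighv1-62, with plasma cells at 26.1 to 42.0, 25.2 to 29.7 and 25.3 to 33.6%. Ighv1-80 took 76.0, 78.6 and 76.9% beside Ighv1-82, with plasma cells at 62.5 to 83.3, 75.6 to 85.0 and 82.2 to 89.2%. Other frequent pairs were less uniform. Ighv5-4 took 27.3 to 77.8% beside Ighv5-6 in 11 Phe-free plasma cells, and Ighv1-25 took 43.3 to 72.7% beside Ighv1-31 in 6 MASH plasma cells. Ighv1-69 took a median of 60.0, 69.2 and 71.4% beside Ighv1-74 in the 3 libraries. The rule that leaves out cells above 80% also bounds how uneven a ratio can appear here. Which of the segments each cell had joined cannot be told from these counts, and the animals' alleles may differ from the C57BL/6J reference, whose effect was not tested.

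Segments differed widely in how often the cells they led passed the limit. Of 73 segments that led at least 20 B cells, the share of those cells that reached 80% ran from 0 to 90.1%, and 26 segments lay under 50%. The 43 segments with a nearest segment at 95% identity or more had a median of 55.5%, and the 30 with a less similar nearest segment a median of 79.9%. Over these 73 segments, which share libraries and reference, Pearson's r between the identity to the nearest segment and the share was -0.33 and Spearman's rho -0.34, given as a description. Ighv7-3 stood at the top, with 629 of the 698 B cells it led assigned. Ighv1-55 led 79 B cells, Ighv5-12 led 51, Ighv1-26 led 45 and Ighv5-1 led 35, and none of them reached 80% in any. Ighv14-1 led 212 B cells and Ighv14-2 led 151, with 1 assigned each, so a low count of cells for these segments does not measure their use.

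Ighv11-2, which joins with Igkv14-126 in B1 antibodies to phosphatidylcholine, a membrane lipid, was such a case. It led no cell, yet 202, 1944 and 4229 UMIs were counted on it in Chow, MASH and Phe-free plasma cells, and 98.0, 99.8 and 99.8% of them lay in cells assigned to Ighv11-1. In B cells it had 24, 62 and 22 UMIs, of which 66.7, 22.6 and 72.7% lay in such cells, so most of those in MASH did not. Ighv11-1 had 2395, 21562 and 56313 UMIs in plasma cells and 285, 571 and 285 in B cells. Ighv11-2 therefore held 7.78, 8.27 and 6.99% of the UMIs of both genes in plasma cells and 7.77, 9.79 and 7.17% in B cells. These shares of the summed UMIs lay within 6.99 to 9.79%, the B cell ones resting on few Ighv11-2 UMIs. Cells assigned to Ighv11-1 are described below under that name, which here may stand for either gene. Ighv5-2, the segment known as VH81X that is joined often early in life, had 0 assigned plasma cells and 10 assigned B cells.

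In B cells the 3 libraries used the segments alike. Ighv1-14, of the large J558 family, led in every library with 281 of 3009 (9.34%), 282 of 3024 (9.33%) and 208 of 2366 (8.79%) assigned B cells. Ighv7-3 of the S107 family was second with 231 (7.68%), 215 (7.11%) and 183 (7.73%). Then came Ighv3-6 with 182, 170 and 119 cells, and Ighv14-3 with 162, 175 and 123. Each order held in all 3 libraries except that Ighv14-3 had more cells than Ighv3-6 in MASH and Phe-free. Ighv2-9-1 had 128, 108 and 82 B cells, Ighv2-9 had 116, 93 and 93, Ighv1-82 had 101, 96 and 83, Ighv1-19 had 91, 87 and 63, Ighv1-5 had 80, 93 and 60, and Ighv1-64 had 72, 98 and 58. The 10 segments used most held 48.7, 46.9 and 46.0% of assigned B cells, and 76, 75 and 70 segments were assigned to at least 1 B cell.

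Ighv1-14 is listed as a pseudogene in GENCODE M21 and as a functional segment in RefSeq, and Ighv7-3 and Ighv7-1 have the opposite pair of labels. The biotypes of 11 of the 183 genes differed between the annotations, which counted 113 and 120 functional segments. Segments called pseudogenes by both made up 0.410, 0.995 and 0% of assigned plasma cells and 1.53, 0.959 and 1.39% of assigned B cells. Of the 33 genes with no UMI, 29 were GENCODE pseudogenes and 4 were listed there as functional.

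Plasma cells of the 3 libraries had different leading segments. Ighv1-14 led in Chow with 26 of 244 cells (10.7%), Ighv7-3 in MASH with 13 of 201 (6.47%) and Ighv2-9 in Phe-free with 37 of 318 (11.6%). Ighv1-14 was assigned to 7 MASH plasma cells (3.48%) and 21 Phe-free plasma cells (6.60%). Its share in MASH was 0.33 times that in Chow (interval 0.15 to 0.74). The B cell share of Ighv1-14 stayed between 8.79 and 9.34%, so this spread was seen in plasma cells and not in B cells. Ighv2-9, of the Q52 family, took 15 (6.15%), 11 (5.47%) and 37 (11.6%) plasma cells, and its Phe-free share was 2.13 times that in MASH (1.11 to 4.07) and 1.89 times that in Chow (1.06 to 3.37). Of the 37 Phe-free cells, 13 shared a light chain, described below. Ighv7-3 took 15 (6.15%), 13 (6.47%) and 27 (8.49%), and its intervals between libraries included 1.

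The other segments with most plasma cells were Ighv6-6 with 13, 10 and 15 cells, Ighv2-9-1 with 18, 6 and 14, Ighv3-6 with 9, 10 and 13, and Ighv6-3 with 10, 12 and 8. Ighv5-16 followed with 7, 7 and 13, Ighv11-1 with 2, 7 and 17, and Ighv1-78 with 4, 6 and 16. Ighv11-1 and Ighv1-78 were the segments of these 10 with under 5 plasma cells in Chow. The 10 segments used most in each library held 54.5, 47.3 and 57.2% of assigned plasma cells, and 43, 44 and 48 segments were used.

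**Figure D2:**
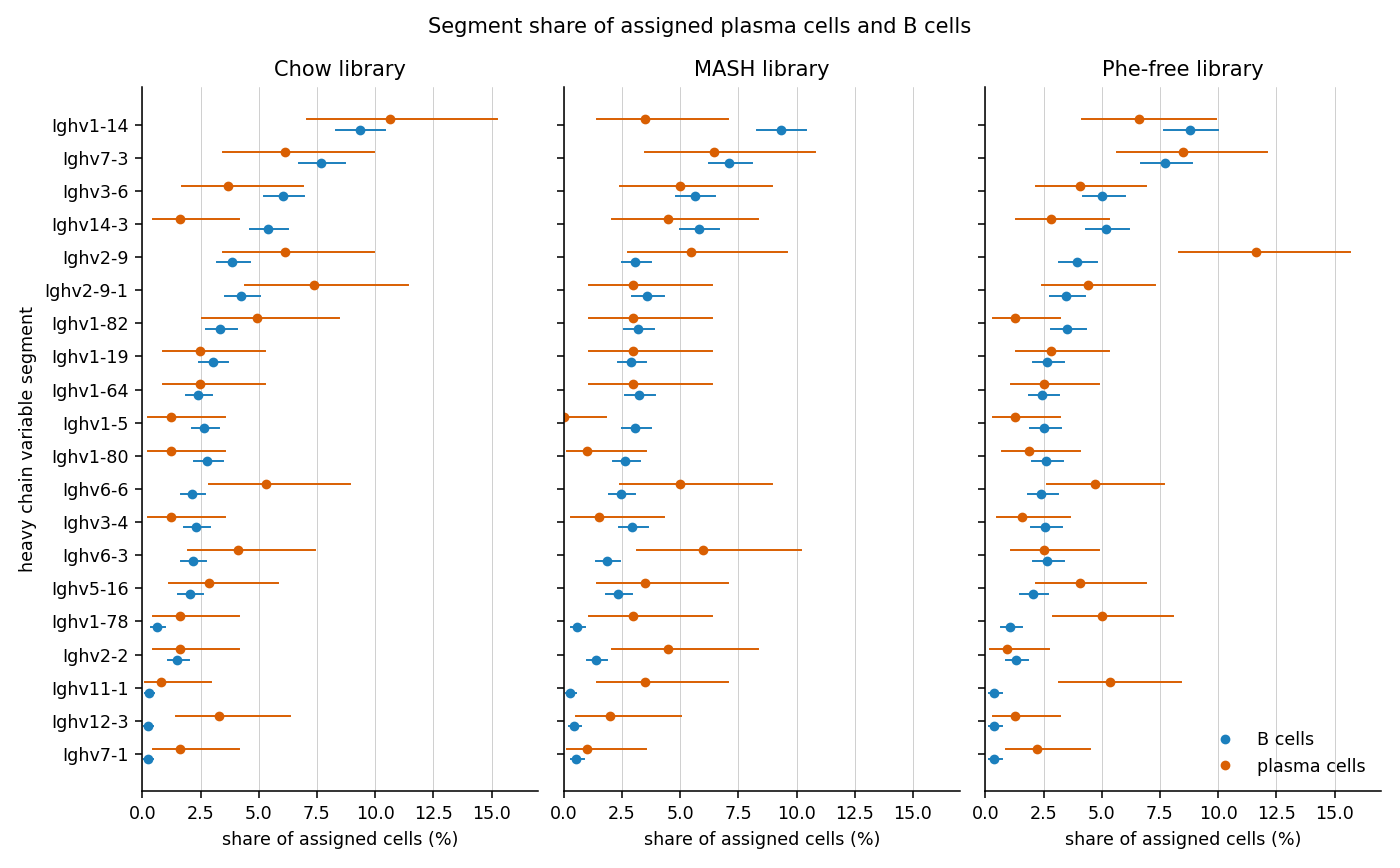
Share of assigned cells, in percent, for named segments, mainly those with most assigned plasma or B cells, with 1 panel a library, plasma cells and B cells as separate points, and bars for exact 95% intervals that cover counting error only. The B cell shares of a segment lie close together in the 3 libraries, while the plasma cell shares of Ighv1-14 (10.7, 3.48 and 6.60%) and Ighv2-9 (6.15, 5.47 and 11.6%) spread.

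Few segments differed between plasma cells and B cells in the same direction in every library. Among segments with at least 20 assigned cells of both classes together, 2 of 37 (5.41%) were past 2-fold higher in plasma cells in Chow and 7 (18.9%) lower. In MASH 8 of 39 (20.5%) were higher and 6 (15.4%) lower, and in Phe-free 5 of 37 (13.5%) were higher and 7 (18.9%) lower. These percentages are the background for any 1 segment. Over the libraries 12 segments were past the limit upward and 17 downward in at least 1 library, of 43 that were measured in any. Ighv1-78 was higher in all 3 and Ighv1-5 lower in all 3, in MASH with its 0 plasma cells set to a floor of 3. The limit of 20 cells counts plasma cells too. Ighv1-78 had 19 B cells in Chow and 17 in MASH, and Ighv11-1 had 9 in Phe-free. They entered there only through their plasma cells, so their place among the higher segments is partly fixed by the limit of 20 cells.

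Ighv1-78 held 4 (1.64%), 6 (2.99%) and 16 (5.03%) plasma cells against 19 (0.631%), 17 (0.562%) and 25 (1.06%) B cells. The ratio of its plasma cell to its B cell share was 2.60 (0.89 to 7.57) in Chow, 5.31 (2.12 to 13.3) in MASH and 4.76 (2.57 to 8.82) in Phe-free, so the Chow interval included 1. Ighv1-5 held 3, 0 and 4 plasma cells against 80 (2.66%), 93 (3.08%) and 60 (2.54%) B cells. Its ratio was 0.46 (0.15 to 1.45) in Chow and 0.50 (0.18 to 1.36) in Phe-free, and with a floor of 3 cells it was 2.06-fold lower in MASH. The exact interval of 0 MASH plasma cells reaches a share of 1.82%, which leaves room for less than a 2-fold difference from the 3.08% of B cells. The low number of plasma cells leaves the intervals of Ighv1-5 wide, and both computed ones included 1. Ighv6-6, of the J606 family, stood at 2.50 (1.40 to 4.48), 2.03 (1.07 to 3.87) and 1.96 (1.12 to 3.42), above 1 in every library and just inside 2-fold in Phe-free.

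Other segments stood at the ends of the order in 1 or 2 libraries. Besides Ighv6-6 and Ighv1-78, Ighv1-20 had the next highest ratio in Chow at 1.93, on 5 plasma cells, while in MASH Ighv6-3 and Ighv2-2 both stood at 3.22. In Phe-free Ighv11-1 stood at 14.1 and Ighv2-9 at 2.96 (2.06 to 4.25). Among segments with at least 1 plasma cell in the library, the lowest were Ighv5-17 at 0.15, Ighv1-63 at 0.29 and Ighv14-3 at 0.30 in Chow, Ighv14-4 at 0.35, Ighv1-14 at 0.37 (0.18 to 0.78) and Ighv1-80 at 0.38 in MASH, and Ighv1-15 at 0.17, Ighv1-20 at 0.22 and Ighv2-5 at 0.29 in Phe-free. Ighv5-17, Ighv1-63, Ighv1-15, Ighv1-20 and Ighv2-5 each rested on 1 plasma cell there. Segments with 0 plasma cells were set against the floor of 3 cells and are left out of this order, such as Ighv1-84 (71 B cells) and Ighv1-63 (53) in MASH and Ighv2-6-8 (40) in Phe-free. Ighv1-20 was past 2-fold higher in MASH and past 2-fold lower in Phe-free, and Ighv1-80 was also past 2-fold lower in Chow (0.44). Of the 823 B cells that Ighv1-80 led, only 226 were assigned to it. In MASH 8 plasma cells and 160 B cells were split between Ighv1-80 and Ighv1-82, against 2 and 80 assigned to Ighv1-80. The ratios of Ighv1-80 leave out these split cells and so do not measure its use. Ighv1-14 was past the limit in MASH and stood at 1.14 (0.78 to 1.67) in Chow and 0.75 (0.49 to 1.16) in Phe-free.

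By family, some ratios lay on the same side of 1 in all 3 libraries and others did not. The shares count cells assigned a segment, so cells split within a family are left out. The 5 most frequent splits were all within families 1, 5 and 14, and their effect on these ratios was not tested. Family 2 (Q52) took 21.7, 18.4 and 18.6% of assigned plasma cells against 13.1, 11.1 and 13.2% of assigned B cells, a ratio of 1.65, 1.65 and 1.40. Family 6 (J606) stood at 2.2, 2.55 and 1.43. On the lower side, the J558 segments of family 1, the largest family of the locus, took 38.1, 32.8 and 30.5% of plasma cells against 44.1, 45.3 and 43% of B cells, a ratio of 0.864, 0.725 and 0.710. Family 14 stood at 0.553, 0.632 and 0.547 and family 3 at 0.628, 0.955 and 0.777. Family 7 was below 1 in Chow and above it in the others, at 0.968, 1.10 and 1.32. Other families also lay on both sides of 1: family 5 at 0.626, 1.07 and 1.14, family 8 at 0.661, 0.493 and 1.19, and family 10 at 1.05, 0.274 and 1.21. A family pools the cells of its segments, so its ratios rest on more cells, but the intervals treat cells as independent. The 59 Phe-free plasma cells of family 2 include 13 that share Ighv2-9 and the light chain segment Igkv8-30. Its 37 MASH plasma cells include 7 that share Ighv2-2 and Igkv8-30. The effect of such shared pairs on the family ratios was not tested. Families 4, 13 and 15 had 0 assigned plasma cells, which allows a share of up to 1.23, 1.49 and 0.943% in the 3 libraries, and family 16 had 0 assigned cells of either class.

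**Figure D3:**
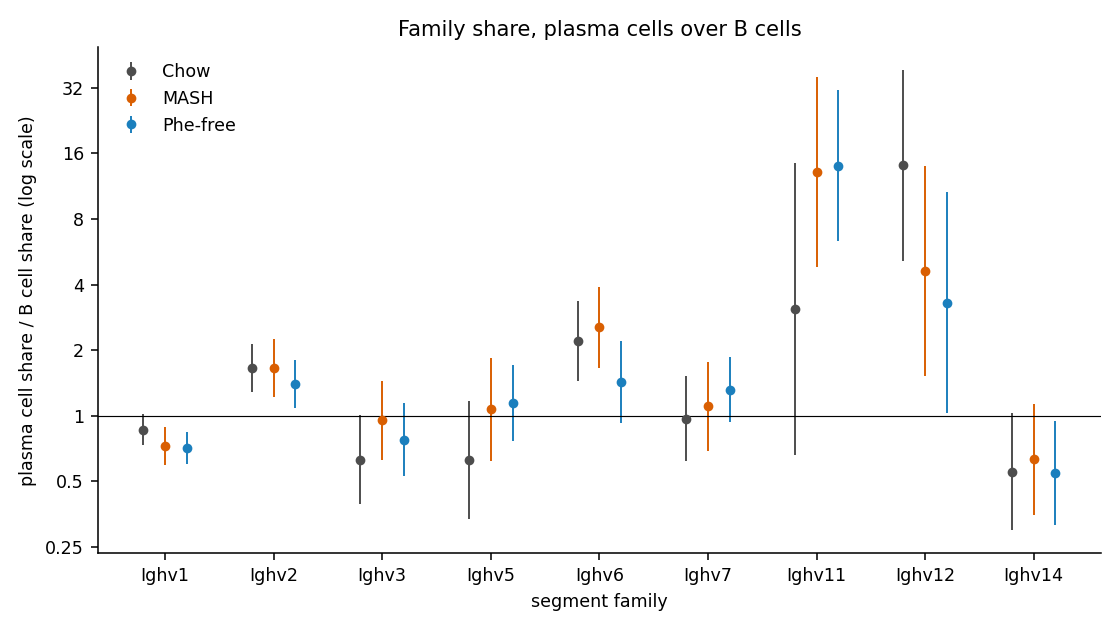
Ratio of the plasma cell share to the B cell share (vertical axis, log scale) for 9 Ighv families, by library, with 95% intervals that cover counting error only. Shares are of cells assigned a segment, which leaves out cells split within a family. The ratios of families 2, 6, 11 and 12 lie above 1 and those of families 1 and 14 below 1 in each library, with intervals that include 1 for family 6 in Phe-free, family 11 in Chow, family 1 in Chow and family 14 in Chow and MASH.

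Along the locus, assigned plasma cells used segments nearer the diversity segments more than assigned B cells did. Split cells are left out of these shares, and the effect of that was not tested. Segments were ranked from that end by their order in GENCODE M21 and divided into 4 parts of equal size. Ranks 1 to 45, nearest the diversity segments, held 29.9 (24.2 to 36.1), 34.8 (28.3 to 41.8) and 37.1% (31.8 to 42.7) of assigned plasma cells against 26.2 (24.6 to 27.8), 24.3 (22.8 to 25.9) and 27.0% (25.2 to 28.8) of B cells. The plasma cell interval overlapped that of B cells in Chow and lay above it in MASH and Phe-free. Ranks 138 to 183, the farthest, held 13.1 (9.15 to 18.0), 12.4 (8.21 to 17.8) and 15.7% (11.9 to 20.2) of plasma cells. B cells had 19.2 (17.8 to 20.7), 20.1 (18.7 to 21.6) and 19.5% (17.9 to 21.2). The intervals of the classes overlapped here in Chow and Phe-free and not in MASH. The nearest part includes cells that share a heavy and light pair, such as 13 Phe-free plasma cells of Ighv2-9, whose effect was not tested. Position and family go together along this locus, since families 2 and 5 lie near the diversity segments and family 1 far from them, and the 2 cannot be told apart here.

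Segments known from B1 antibodies formed a small share of B cells and a larger share of plasma cells. Ighv11-1 was assigned to 8 (0.266%), 8 (0.265%) and 9 (0.380%) B cells and to 2 (0.820%), 7 (3.48%) and 17 (5.35%) plasma cells. The ratio of shares was 3.08 (0.66 to 14.4), 13.2 (4.82 to 35.9) and 14.1 (6.32 to 31.3). Its plasma cell share in Phe-free was 6.52 times that in Chow (1.52 to 28.0), and in MASH 4.25 times (0.89 to 20.2), the latter with an interval that includes 1. The B cell share did not show that order, and the number of animals behind each library is not given. Ighv12-3, which pairs with Igkv4-91 in antibodies to the same lipid, was assigned to 7, 13 and 9 B cells and to 8 (3.28%), 4 (1.99%) and 4 (1.26%) plasma cells, a ratio of 14.1 (5.15 to 38.5), 4.63 (1.52 to 14.1) and 3.31 (1.02 to 10.7). Ighv7-1, the segment of the T15 antibodies to phosphorylcholine, was assigned to 7, 16 and 9 B cells and to 4, 2 and 7 plasma cells, a ratio of 7.05 (2.08 to 23.9), 1.88 (0.44 to 8.12) and 5.79 (2.17 to 15.4).

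B cells of Ighv11-1 and Ighv12-3 carried more B1 transcripts and fewer follicular ones than B cells at large. They number 25 and 29 over the libraries, below the 50 asked of other segments, and are given as named segments, Ighv11-1 having been singled out after its values were seen. The B1 list (Bhlhe41, Zbtb32, Cd5, Spn, Plscr1, Ctla4, Zcwpw1) summed to 262, 319 and 258 CPM in Ighv11-1 B cells against 63.0, 77.1 and 84.1 CPM in all assigned B cells, a ratio of 4.17, 4.14 and 3.07. In Ighv12-3 B cells the ratio was 6.73, 2.86 and 4.45. Bhlhe41, a transcription factor that B1a cells need, stood at 131, 88.1 and 111 CPM in Ighv11-1 B cells and at 78.1, 52.9 and 90.7 CPM in Ighv12-3 B cells, against 10.5, 13.3 and 15.9 CPM in all assigned B cells. It was above the level of all assigned B cells in both segments in each library, as were Plscr1 and Spn. The other members were not in every library: in Ighv11-1 cells Cd5 and Ctla4 had 0 UMIs in Chow and Zcwpw1 had 0 in MASH, and in Ighv12-3 cells Zbtb32 had 0 in Chow and Zcwpw1 stood at 0.69 times in MASH. These members rest on 0 to 11 UMIs per segment and library. Ighv7-1, the other segment named above, did not share this: in its 32 B cells the B1 list stood at 0.945, 0.296 and 0.402 times. Fcer2a and Ccr7 together stood there at 1.19, 0.997 and 0.526 times the level of all assigned B cells.

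The follicular genes Fcer2a and Ccr7 together stood at 0.26, 0.12 and 0.076 times the level of all assigned B cells in Ighv11-1 cells and at 0.11, 0.56 and 0.60 times in Ighv12-3 cells. Fcer2a, which encodes the IgE receptor CD23, had no UMI in the 25 Ighv11-1 B cells, and stood at 210, 263 and 220 CPM in all assigned B cells. Cr2, the complement receptor CD21 that is high on marginal zone cells and present on follicular cells, stood at 0.15, 0.04 and 0.13 times in Ighv11-1 cells and at 0.22, 0.10 and 0.01 times in Ighv12-3 cells. The marginal zone list without Cr2 (Cd9, Dtx1, S1pr3, Asb2, Ackr3, Dph5) stood at 0.36, 0.75 and 0.51 times in Ighv11-1 cells and at 0.75, 0.44 and 0.33 times in Ighv12-3 cells. These values, apart from those of the B1 list, were thus below the level of all assigned B cells for both segments in each library.

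Ighv7-3 B cells were higher in marginal zone genes. In them the marginal zone list stood at 1.44, 1.31 and 1.28 times the level of all assigned B cells, the follicular pair of Fcer2a and Ccr7 at 0.54, 0.77 and 0.66 times, Cr2 at 1.30, 1.09 and 1.12 times, and the B1 list at 0.70, 0.68 and 1.28 times. Among the 43 segments with at least 50 B cells, 2 had the marginal zone list above 1 and the follicular pair below 1 in all 3 libraries, Ighv7-3 and Ighv1-62. Another 6 segments had the reverse in all 3, namely Ighv3-6, Ighv1-5, Ighv1-63, Ighv1-20, Ighv3-1 and Ighv1-81. These segments were found by looking over the segments. Of the 43, the marginal zone list was above 1 in all 3 libraries for 7 and in none for 12, the follicular pair for 10 and for 6, and the B1 list for 0 in all 3. The ratios of these 43 ranged from 0.461 to 1.49 for the marginal zone list and from 0.430 to 1.76 for the follicular pair.

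**Figure D4:**
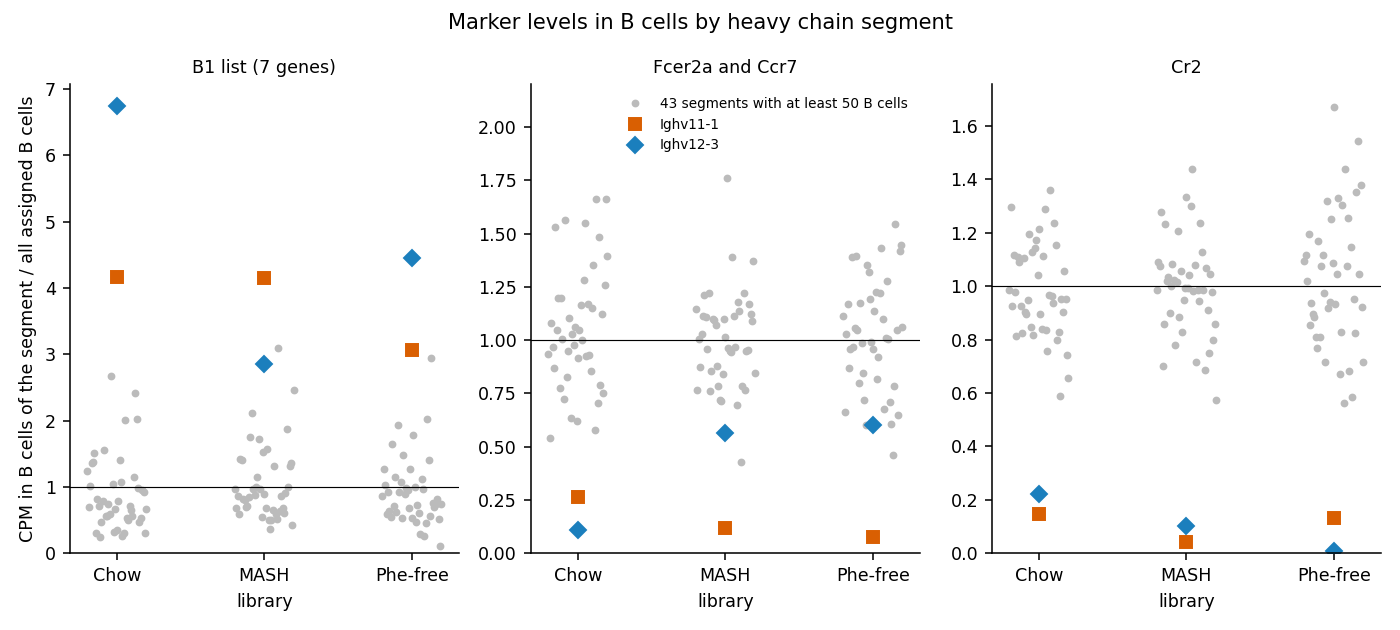
Summed CPM of the B1 list, of Fcer2a and Ccr7 together, and of Cr2 in B cells of each segment (vertical axis, relative to all assigned B cells, with a line at 1), by library, for 43 segments with at least 50 B cells (grey), Ighv11-1 and Ighv12-3. Both named segments lie below all 43 on Cr2 in all 3 libraries, Ighv11-1 also on Fcer2a and Ccr7, and both lie above them on the B1 list except for Ighv12-3 in MASH (2.86, against up to 3.10 among the 43). Ighv7-1 is not shown.

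Most assigned plasma cells expressed IgM. A switched constant gene (any of the Ighg, Ighe and Igha genes) led in 18 of 244 (7.38%), 19 of 201 (9.45%) and 39 of 318 (12.3%) assigned plasma cells, and in 0.731, 0.694 and 1.82% of assigned B cells. Pooled over libraries, 76 of 763 plasma cells (9.96%, 7.93 to 12.3) and 86 of 8399 B cells (1.02%, 0.820 to 1.26) were switched. Ighm led in all 26 plasma cells and all 25 B cells of Ighv11-1 and in all 16 plasma cells of Ighv12-3. Of 26 cells, 0 switched has an interval up to 13.2%, which includes the pooled share, so these counts are too few to set Ighv11-1 apart. Among Ighv1-14 plasma cells, 6 of the 21 in Phe-free were switched (28.6%), and 7 of 54 over the libraries (13%, 5.37 to 24.9).

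IgD, made by splicing of the same transcript and high on follicular cells, led in different shares of the B cells of different segments. Ighd led in 26.4, 22.3 and 19.6% of assigned B cells of the 3 libraries and in 23.0% (22.1 to 23.9) over them. In Ighv11-1 it led in 0 of 25 (interval up to 13.7%), and in Ighv12-3 in 5 of 29 (17.2%, 5.85 to 35.8). Ighv6-6 with 21 of 195 (10.8%, 6.79 to 16) and Ighv6-3 with 25 of 184 (13.6%, 8.99 to 19.4) were low, and both belong to family 6. Ighv1-20 with 36 of 101 (35.6%, 26.4 to 45.8) and Ighv1-5 with 77 of 233 (33.0%, 27.0 to 39.5) were high, and both were among the segments with the follicular pair above 1 in all libraries. Segments were picked here for their values, and intervals cover counting error only.

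Light chains gave a second label for each cell. A light chain was assigned by the same 80% rule to at least 3 light chain variable UMIs, and 219, 182 and 291 plasma cells and 2222, 2213 and 1733 B cells had both chains. Ighv11-1 was paired with Igkv14-126 in 2 of 2, 6 of 6 and 5 of 15 such plasma cells and in 5 of 5, 4 of 7 and 7 of 9 B cells. Ighv12-3 was paired with Igkv4-91 in 2 of 4, 3 of 3 and 3 of 4 plasma cells and in 3 of 5, 8 of 12 and 5 of 6 B cells. Both pairs were thus found in both classes and in every library. The pair known from B1 antibodies is Ighv11-2 with Igkv14-126, and which of the 2 genes the cells named Ighv11-1 had joined was not settled. In Phe-free another 7 Ighv11-1 plasma cells held the lambda segment Iglv2, a pair seen in 0 Chow and 0 MASH plasma cells and in 2 MASH B cells. These 7 cells held 3.52% of the library's plasma cell Ighv UMIs, and all had Ighm as leading constant gene.

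A pair of plasma cells matched in both chains more often than a pair of B cells. Of all pairs of plasma cells in a library, 0.398, 0.650 and 0.638% matched in both segments, against 0.0906, 0.0947 and 0.0944% of pairs of B cells. That was 4.38, 7.70 and 4.90 times the product of the separate heavy and light matches in plasma cells and 1.16, 1.29 and 1.24 times in B cells. In plasma cells, 40.6, 45.6 and 46.7% of cells with both chains shared their pair with another cell of the library. The share was higher in B cells, at 66.3, 66.0 and 60.4%, of which there are many more in each library. Whether such cells descend from 1 clone was not tested, since the tables hold no junction sequence.

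Some of the largest shared pairs were counted in several libraries and some in 1. Ighv2-9 with Igkv8-30 was in 0, 0 and 13 plasma cells and in 1, 1 and 3 B cells, Ighv6-6 with Igkv6-23 in 3, 1 and 10 plasma cells and in 3, 0 and 6 B cells, and Ighv11-1 with Igkv14-126 in 2, 6 and 5 plasma cells. Ighv5-16 with Igkv6-32 was in 4, 3 and 4 plasma cells and in 0, 2 and 0 B cells, and Ighv7-3 with Igkv8-30 in 1, 3 and 7 plasma cells and 14, 10 and 11 B cells. Other pairs were counted in plasma cells of 1 library. In MASH, Ighv2-2 with Igkv8-30 was in 7 plasma cells and Ighv1-12 with Igkv8-24 in 7, and in Chow Ighv6-3 with Igkv1-117 was in 6, each with 0 plasma cells in the other libraries. Ighv1-82 with Igkv4-57 was in 7, 0 and 2 plasma cells. The 7 MASH cells of Ighv2-2 and Igkv8-30 had a median of 12039 Ighv UMIs and held 8.52% of the library's plasma cell Ighv UMIs, and all 7 were led by Ighm. No B cell held that pair. Ighv7-1 with Igkv15-103 was in 3, 2 and 1 plasma cells and 0 B cells.

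The evenness of segment use followed no common direction between the classes. The effective number of segments, the inverse of the chance that a pair of cells drawn from the library use the same segment, was 26.0, 33.2 and 23.5 in plasma cells and 27.8, 28.7 and 29.6 in B cells. Plasma cells were thus less even than B cells in Chow and Phe-free and more even in MASH. With at least 10 Ighv UMIs asked of a cell, the Chow values were 27.0 and 26.1, the other way round. In B cells the 3 values lay closer together than in plasma cells.

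Between libraries, summed Ighv counts moved widely in plasma cells and little in B cells. The 3 comparisons share libraries, so they are not independent. In plasma cells, MASH over Chow, 30 of 94 Ighv genes were past 2-fold higher and 35 lower, against 1.35% and 1.55% of all genes. For Phe-free over MASH, 35 of 101 were higher and 23 lower (1.95% and 0.909% of all genes), and for Phe-free over Chow, 29 of 100 were higher and 24 lower (1.78% and 1.21%). In B cells, 2 of 102 were higher and 0 lower for MASH over Chow (0.648% and 0.577% of all genes), 1 of 100 higher and 3 lower for Phe-free over MASH (0.781% and 0.275%), and 3 of 100 higher and 2 lower for Phe-free over Chow (0.999% and 0.412%). The plasma cell sums run over 339, 288 and 433 cells, many with a high Ighv UMI count, so that 1 cell can carry a gene. Fewer cells using a segment and less RNA per cell cannot be told apart in these sums.

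The plasma cell genes farthest apart show this. Ighv7-4 had 18724 UMIs in MASH plasma cells, 55.3% of them from 1 cell and with 2 assigned cells, against 2 UMIs in Chow and 10 in Phe-free. Ighv3-1 had 7105 in MASH, 98.7% from 1 cell, against 4 in Chow and 2658 in Phe-free, of which 99.2% came from 1 cell. Ighv1-63 had 29496 UMIs from 5 assigned cells in Phe-free, 6 in MASH and 3236 in Chow, where 1 cell held 99.3%. A handful of cells thus set each of these sums. Ighv9-4 (13632 in Phe-free, 3 in MASH, 1873 in Chow) and Ighv8-12 (6011, 1 and 3866) followed the same pattern, and Ighv3-5 and Ighv8-4 had 1831 and 1727 UMIs in Phe-free and 0 in Chow. Ighv5-2 had 2761 UMIs in MASH against 161 in Chow, with 0 assigned cells in either and 85.5% of the MASH UMIs in 1 cell.

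Lower in Phe-free were Ighv1-12, with 2569 UMIs against 4240 in Chow and 48236 in MASH, where its 7 assigned cells share a light chain, and Ighv2-7, with 785 against 13307 in Chow and 1805 in MASH. Ighv2-6-8 had 176 UMIs in Phe-free, 3513 in MASH and 13125 in Chow, and Ighv1-28 had 8 in Phe-free and 5 in MASH against 906 in Chow. In B cells the farthest were modest. Ighv1-78 had 909 UMIs in Phe-free against 381 in Chow, 46.9% of the Phe-free ones from 1 cell, and Ighv1-47 had 1265 against 545, 51.1% of them from 1 cell. Ighv8-5 had 1191 UMIs in Phe-free B cells against 722 in Chow and 696 in MASH, without such a cell (10.7% in the highest). Ighv1-62-2 had 492 UMIs in MASH against 172 in Chow and 140 in Phe-free, and Ighv1-86 had 220 against 78. Ighv7-4 had 197 UMIs in Chow B cells, 73 in MASH and 0 in Phe-free, on 4, 1 and 0 assigned cells.

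**Figure D5:**
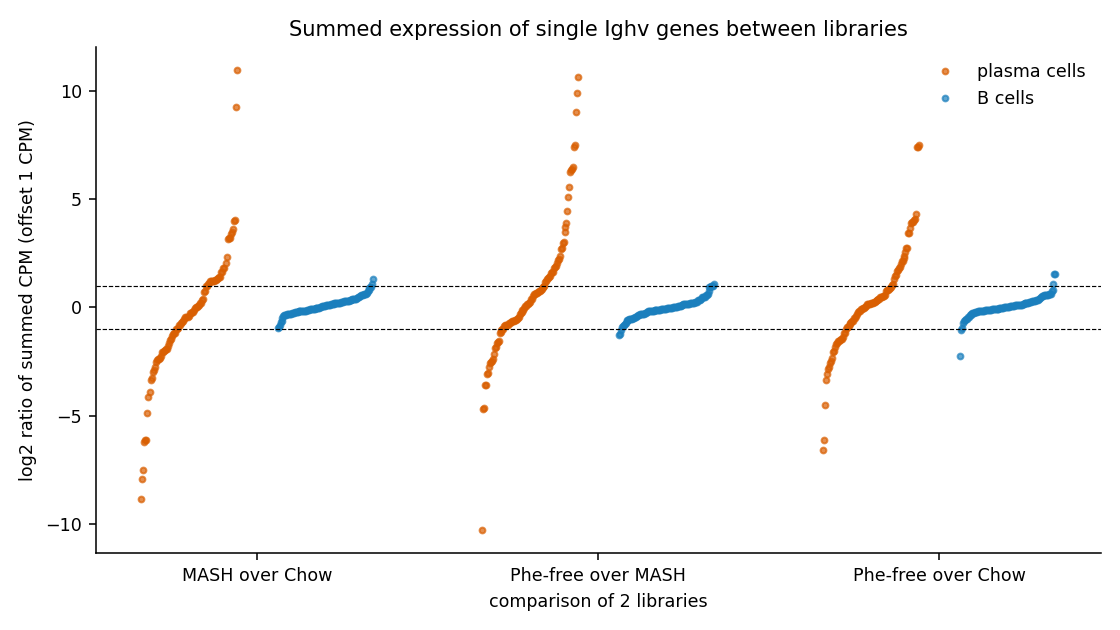
Log2 ratio of summed CPM, with an offset of 1 CPM, for each Ighv gene between pairs of libraries, in plasma cells and in B cells. Ratios in plasma cells spread to 10.9 (Ighv7-4, MASH over Chow), while those in B cells stay between -2.24 and 1.53.

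The genes that act on heavy chain genes were compared between the classes and between the libraries. Of the 12 genes of the transcription and processing list, 4 were past 2-fold higher in plasma cells and 6 lower, and the same 10 genes in all 3 libraries. Of all genes tested, 4.48 to 5.07% were higher and 54.5 to 55.7% lower. The 6 lower genes are thus near the share of all genes, while the 4 higher ones lie above it. Xbp1, which drives the secretory programme, stood at 1034, 1080 and 1129 CPM in plasma cells and 56.1, 55.8 and 59.7 CPM in B cells. Prdm1, which represses the B cell programme, stood at 129, 79.5 and 91.6 against 7.0, 5.66 and 6.35 CPM, and Irf4 and Ell2, the latter needed for the secreted form of the heavy chain, were the other 2. Lower were Pax5 (49.1, 66.7 and 51.0 against 673, 644 and 614 CPM), Ebf1, Pou2f2, Spi1, Ikzf1 and Tcf3. The octamer factor Pou2f1 and its cofactor partner Pou2af1 were within 2-fold. Between libraries 0 of these 12 genes were past 2-fold in plasma cells and 0 in B cells, in any of the 3 comparisons. Of all genes tested, 2.86 to 2.98% were past it in plasma cells and 1.06 to 1.41% in B cells. A count of 0 of 12 therefore does not set these genes apart.

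Among genes of recombination, Dntt, which adds bases at the joins, stood at 0.270, 0 and 0.0976 CPM in plasma cells and 2.30, 0.787 and 0.372 CPM in B cells. Rag1 and Rag2, which cut the segments in precursors, were at or below 0.339 CPM in both classes. Among the heavy constant genes, Ighm stood at 48838, 41032 and 35643 CPM in plasma cells and 1605, 1579 and 1498 CPM in B cells, while Ighd was lower in plasma cells at 18.9, 13.5 and 9.66 against 814, 699 and 591 CPM. Between libraries the switched genes of plasma cells moved past 2-fold: Ighg2b stood at 16.1, 311 and 657 CPM and Ighg2c at 32.9, 271 and 486 CPM, both lowest in Chow. Ighg1 stood at 468, 16.5 and 666 CPM, lowest in MASH, and Ighe at 0.270, 8.93 and 178 CPM. Ighg3 stood at 34.9, 237 and 45.3 CPM and Igha at 2822, 1260 and 1678 CPM. These sums rest on the 18, 19 and 39 switched cells among the assigned plasma cells and on the unassigned ones. Few cells lie behind single genes. Among assigned plasma cells Ighg2b led in 0, 4 and 1, Ighg2c in 1, 3 and 7, and Ighg1 in 4, 3 and 13. Ighe led in 0, 0 and 1, Ighg3 in 0, 3 and 1, and Igha in 13, 6 and 16. In B cells 0 of the 7 heavy constant genes measured were past 2-fold in any of these comparisons, against 1.06 to 1.41% of all genes.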

How the data were processed

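Spleen cells of 3 groups, 1 library each, were profiled as polyA RNA with the 10x Chromium 5′ kit, per the labels' protocols. Cell Ranger 9.0.1 and Seurat 5.3.0 are named, with GRCm39, in the submitters' processing notes, without their settings. The deposited values are raw UMI counts per gene and barcode, whole numbers per the file headers, for 16495 (Chow), 19219 (MASH) and 16778 (Phe-free) barcodes.

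Cells with at least 300 genes and 500 UMIs and at most 10% mitochondrial UMIs were kept, and Scrublet, run in scanpy 1.11.5, removed 315, 318 and 304 of them (1.97, 1.80 and 1.92%). Counts were not normalised for assignment, and sums over a class are given as CPM. Shares, ratios and summed counts were computed with Python 3.11.15, numpy 2.4.6, scipy 1.17.1 and pandas 2.3.3, and transcript identity with Biopython 1.88 from GENCODE M21 transcripts (GRCm38), which all 183 genes matched. The steps were tested on simulated data. RefSeq gave the other biotypes. Promoters of these genes were not analysed here, and some genes of the lists are not reported here: the follicular level uses Fcer2a and Ccr7, a choice made after seeing the data.

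The members and lists were chosen with earlier results of these data known. Segments are named by a rule: the 10 with most plasma cells and the 10 with most B cells; in each library the 3 highest and 3 lowest ratios among those with at least 20 cells; the 3 Ighv genes farthest apart in each direction between libraries; segments over 5% of a class; Ighv11-2, Ighv12-3, Ighv7-1, Ighv1-55, Ighv5-2 and Ighv2-2; the 5 most frequent splits and the 5 heavy and light pairs shared by most plasma cells; and members of the gene lists. Others named were chosen after their values were seen. Alternatives were the limits on share and UMIs, thinning, doublets kept, leaving out each gene's highest cell, CPM without immunoglobulin genes, and assignment by family.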

Additional observations from a re-analysis of the deposited data

Results flagged for a closer look

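Of the segments with at least 20 assigned cells in a library, 3 were past 2-fold between plasma cells and B cells in opposite directions in MASH and Phe-free, and each difference between the libraries was not tested. Ighv2-6 had a ratio of plasma cell share to B cell share of 2.35 in MASH (5 of 201 plasma cells, 32 of 3024 B cells) and 0.438 in Phe-free (2 of 318 and 34 of 2366), with 1.90 in Chow. Ighv1-12 had 2.70 in MASH and 0.496 in Phe-free, with 0.725 in Chow, and its 7 MASH plasma cells all carried the light chain segment Igkv8-24. Ighv1-20 had 2.58 in MASH and 0.219 in Phe-free, with 1.93 in Chow. Each of these ratios rests on 1 to 7 plasma cells in MASH and Phe-free.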

How the results depend on the processing

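Each result was recomputed under the alternatives listed for it and under 2 chosen after seeing the data, assignment by family and leaving out the pair of heavy and light segments shared by most plasma cells. Of the main values recomputed, 91 stayed close to the reported value (within its counting interval or 1.5 times a count) and 20 moved. Of the other values, 527 stayed and 50 moved. These were the ratios of single segments, and the assigned percentages and effective numbers of each class. The effective number of segments in plasma cells over that in B cells crossed 1 in Chow, from 0.934 to 1.04, with at least 10 Ighv UMIs. The ratio of plasma cells to B cells assigned, 1.36, 1.26 and 1.33 in Chow, MASH and Phe-free, was 1.15 in Chow and 1.15 in Phe-free at a limit of 60%, and 2.0, 1.80 and 1.81 at 95%. It was 1.56, 1.44 and 1.51 with at least 10 Ighv UMIs, 1.73, 1.47 and 1.59 after thinning to 2000 UMIs, and 1.20 in Chow and 1.18 in Phe-free by family. The ratio of dominance after thinning to 10 Ighv UMIs was 1.09, 1.08 and 1.10, against 1.27, 1.15 and 1.22 over all cells with at least 3. That setting also leaves out cells under 10 Ighv UMIs. Segments past 2-fold between the classes numbered 9, 14 and 12, and became 14 in Chow and 22 in MASH at 60%, and 9 in MASH and 6 in Phe-free at 95%. Ighv genes past 2-fold in B cells, MASH over Chow, went from 2 to 4 without each gene's cell of most UMIs in each library, and the cause was not tested. In B cells, Phe-free over Chow, the split of 3 higher and 2 lower became 1 higher and 3 lower without those cells, and for Phe-free over MASH 1 higher and 3 lower became 2 and 2. No paired analysis was possible because each group is 1 library and no result comes from a test.

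The median B cell held 16 to 18 Ighv UMIs, against 1274 to 1309 in plasma cells. Plasma cells are limited by number, with 201 to 318 assigned cells a library. By the exact intervals, a segment with no cell may still hold up to 1.15 to 1.82% of them. Animals, batches and diet cannot be told apart with 1 library a group. The tables were counted on a C57BL/6J reference, whether that moves UMIs between near copies was not tested, and neither junction sequences nor a GRCm39 annotation were used here.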
